A study of Musca domestica with 24 samples.

Results

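Genes of the house fly, Musca domestica, that carry no Muller element in the deposited expression tables were examined in heads and abdomens of flies that had received double-stranded RNA. Members were the genes with an identifier that starts with LOC and with an empty element field. There were 3836 such genes among 16540 in all, against 12681 genes with an element, and the other 23 genes without one have symbols and were not members. Members were kept in a tissue when at least 3 of its 12 libraries reached a value of 10, which left 2119 members in the abdomen and 2082 in the head. Of the 2510 members kept in either tissue, 1691 were kept in both, 428 in the abdomen only and 391 in the head only. The filter removed far more members than other genes: 55.2% of members and 82.1% of genes with an element were kept in the abdomen, and 54.3% and 80.1% in the head. The third highest value was 10.05 in LOC101890228 and 10.05 in LOC101889579, the members just inside the filter in abdomen and head, and 9.85 in LOC109613875 and 9.73 in LOC101897548, those just outside.

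Muller elements are the chromosome arms whose gene content is conserved among flies, named A to F. How the authors assigned genes to them is not stated in the labels or headers. Genes are commonly assigned through relatives of known position in other flies, and genes that cannot be placed include young genes, non-coding RNA genes, members of repeated families and genes on short pieces of an assembly. In the house fly, sex is set by a male determiner that can sit on different chromosomes, and transformer, Md-tra, is needed for female development. In the strain used here, that determiner is on chromosome III, the house fly's Muller element A.

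All flies were of the strain IIIM (3-6) and all were given double-stranded RNA, either to knock down Md-tra or, as the control, to target GFP, which flies lack. Each tissue had 4 groups of 3 single flies: Md-tra RNAi flies coded N, Md-tra RNAi flies coded SR, GFP RNAi genotypic females and GFP RNAi genotypic males. N and SR flies were all phenotypic males per the labels. Sample titles give N as genotypic females, that is as the sex-reversed flies, and SR as genotypic males. The headers of the authors' comparison columns name sex-reversed and normal Md-tra RNAi males without these codes. The log2 fold changes in the authors' deposited table for sex-reversed males over GFP females lay within 0.1 of the log2 ratio of SR to GFP female means for 100% of 8577 abdomen genes with all group means above 10, and of the ratio of N to GFP female means for 11.2%. Those in the authors' deposited table for normal Md-tra RNAi males over GFP males matched N over GFP males for 95.3% of the same genes, and SR over GFP males for 11.4%. In heads the column for sex-reversed males matched SR without replicate 2 for 99.8% of 10811 genes. The authors' comparisons thus took SR as sex-reversed and N as normal, the reverse of the titles, so the codes N and SR are used throughout. Knockdown of Md-tra itself was not analysed here.

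Values are normalized counts, read counts divided by 1 size factor per library and not by gene length. Abdomen libraries held 2689265, 16113838 and 2756581 recovered reads in N replicates 1 to 3 and 20916287 to 77407229 in the other groups, and head libraries held 12080603 to 79454339. One read was worth up to 7.83 normalized counts in the shallow N abdomens and as little as 0.206 in GFP female abdomens. Kept members had lower counts than kept genes with an element, with a median over genes of the mean normalized count of 114 against 498 in the abdomen and of 140 against 599 in the head. No read in any of the 12 libraries was found for 379 members in the abdomen and for 491 in the head. The RefSeq gene table held 68.5% of the members kept in the abdomen and 65.5% of those kept in the head, against 92.4% and 92.2% of kept genes with an element. With fewer than 80% of members matched, gene type and neighbours are not given as a property of the members as a whole. They are given below for single genes and for the lncRNA and protein-coding genes the table names.

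The members' share of each library separated GFP female abdomens from all other abdomens. Members took 14.3, 20.9 and 11.1% of the reads in N abdomens, 16.3, 14.7 and 20.1% in SR abdomens, 6.03, 5.75 and 5.87% in GFP female abdomens and 17.0, 16.3 and 17.7% in GFP male abdomens. The GFP female values lay below every value of the other 3 groups. Fewer members carried the male signal: 50% of the member reads came from 8 to 21 genes in N, SR and GFP male abdomens and from 54 to 62 genes in GFP female abdomens. In heads the share was 8.06 to 10.6% in 11 libraries and 16.9% in SR replicate 2. There 1 protein-coding gene, LOC101892639, took 5.67% of the library, as described further on. In whole abdomens, fewer cells of a type and less RNA per cell cannot be told apart.

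**Figure D1:**
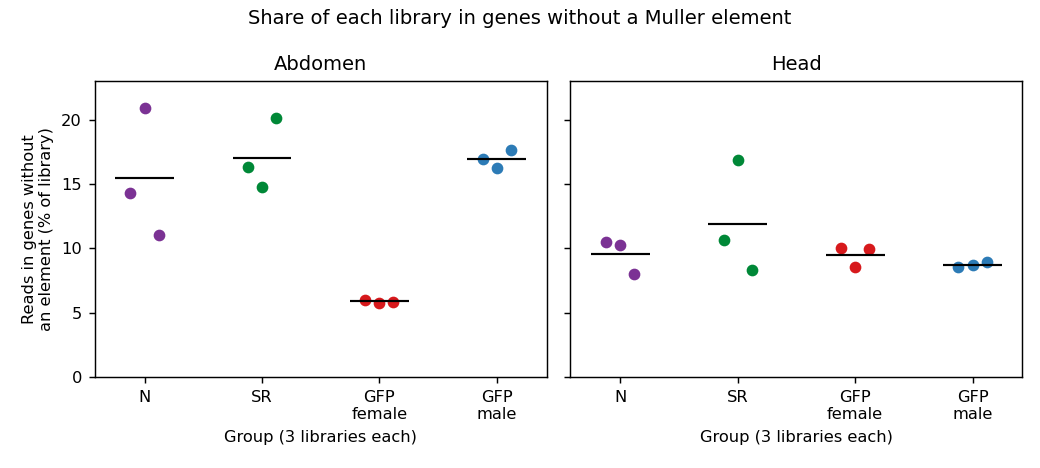
Percent of each library's reads that fell in genes without a Muller element (y axis), by group (x axis), in abdomen (left) and head (right); points are libraries and lines are means of 3. GFP female abdomens sit at 5.75 to 6.03%, below the 11.1 to 20.9% of all other abdomens, and the high head is SR replicate 2 at 16.9%.

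Control flies that received GFP RNAi show how females and males differ. In the abdomen the members leaned towards males: 400 of 2119 were higher in GFP females and 1205 were higher in GFP males, that is 18.9% and 56.9% of members. Over all 12537 genes tested, 77.7% were called in either direction, 33.4% higher in GFP females and 44.3% higher in GFP males. Of genes with an element, 36.4% were higher in GFP females and 41.7% in GFP males, and elements A to E ranged from 39.8 to 43.3% higher in GFP males. The median log2 difference, GFP females minus GFP males, was -2.84 for members, against -0.28 for genes with an element and -0.61 for all genes. Calls are by limma with a Benjamini-Hochberg adjusted p under 0.05. TMM scaling shifted the median of all genes to -0.10 and left the members at -2.51, with 484 higher in GFP females and 1127 higher in GFP males. Under TMM the lean of genes with an element turned round, with 43.9% higher in GFP females, 37.4% higher in GFP males and a median of 0.24.

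The sets differed most among genes with higher counts. Among members with a mean of at least 1000 normalized counts over the 12 abdomens, 20.8% were higher in GFP females and 64.2% in GFP males, against 36.9% and 40.8% of genes with an element in that class. With means of 100 to 1000 the members gave 28.5% and 54.9%, against 48.1% and 34.3% of genes with an element. With means under 100 the sets were near each other, at 10.8% and 56.0% for members against 8.4% and 59.9% for genes with an element. The classes were chosen after values had been seen. Their mean includes the GFP values compared, and N, SR and GFP male abdomens outnumber GFP female abdomens in it. A gene high in all males thus reaches a class at a lower level than a gene high in GFP females alone. Values under 10 in all 3 GFP female abdomens were found for 859 kept members, 40.5% of them, and for 21.1% of kept genes with an element. Such genes passed the filter through N, SR or GFP male abdomens only, which leaves little room for a call higher in GFP females. They are counted in the shares and medians above, and their part in the lean towards males was not tested. Of the kept members, 37 passed the filter through GFP female abdomens alone, 13 through N, 2 through SR and 1 through GFP males.

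**Figure D2:**
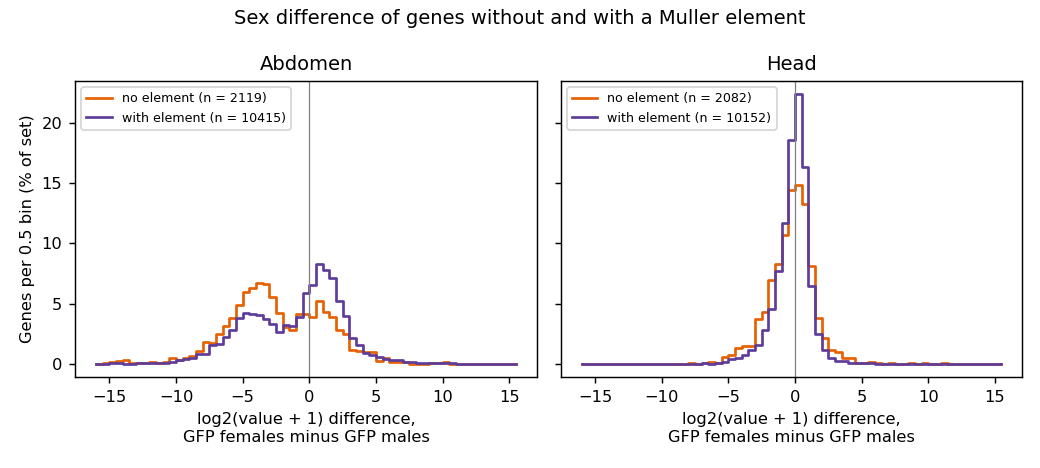
Distribution of the sex difference, GFP females minus GFP males, on the log2(value + 1) scale (x axis, bins of 0.5) as percent of each gene set (y axis), in abdomen (left) and head (right). In the abdomen the curve for genes without an element peaks left of 0, on the side of higher values in males, and that for genes with an element peaks right of 0; in the head both peak near 0.

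**Figure D3:**
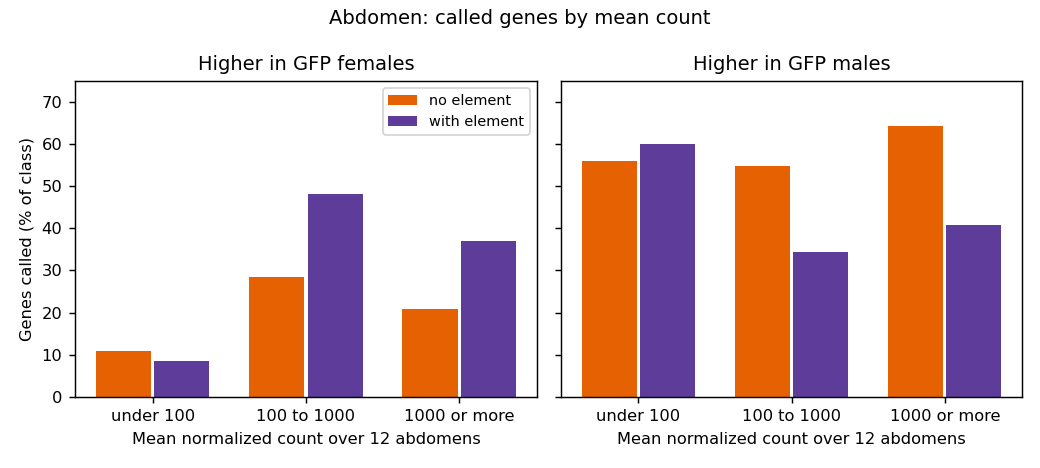
Percent of genes called (y axis, from 0) higher in GFP females (left) or higher in GFP males (right) in the abdomen, by mean normalized count over the 12 abdomens (x axis), for genes without and with a Muller element. The sets are close in the class under 100 and apart in the 2 classes above it, where 54.9 and 64.2% of genes without an element are higher in males.

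The male-biased members included some of the largest differences. A called difference of over 100-fold, taken from the limma difference of log2(value + 1), was found for 205 members higher in GFP males. Of all genes tested, 6.66% passed this rule. In the other direction 11 members higher in GFP females passed the same rule, with 0.782% of all genes. LOC109612459, which has no entry in the RefSeq table, had 6894, 16696 and 3956 normalized counts in N, 91855, 94145 and 282766 in SR, 8.67, 0 and 9.67 in GFP females, with 191081, 202786 and 180290 in GFP males. It was 31313-fold lower in GFP females than in GFP males, a log2 difference of -15.31 ± 0.85 (SE, n = 3 per group throughout; adjusted p = 3.5e-07). N libraries lay below SR libraries as well, by 4.13 ± 0.85 on the log2 scale (adjusted p = 0.0152), with no overlap. LOC109612234, also without an entry, had 2.89, 0 and 2.84 in GFP females against 71004, 60192 and 67767 in GFP males. N and SR abdomens held 1111 to 40739 normalized counts of it, below every GFP male.

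The 6 female-biased members of the abdomen with the largest differences were at low counts in all 3 kinds of male; low GFP male values follow from that choice. LOC101894204, a protein-coding gene, had 0, 13.5 and 7.77 normalized counts in N, 19.2, 13.9 and 21.3 in SR, 13819, 12775 and 14920 in GFP females, with 7.18, 17.7 and 6.86 in GFP males. It was 1309-fold higher in GFP females (log2 difference 10.34 ± 0.83, adjusted p = 2.37e-06). LOC101887307 reached 4447, 4762 and 4887 in GFP females and at most 6.43 in any other abdomen. LOC101888541 had 3620, 4255 and 4965 in GFP females and at most 8.44 elsewhere. LOC101895419 stood at 4542, 5764 and 6711 in GFP females, against 10.05, 7.24 and 1.96 in GFP males, with 69.9 in N replicate 3 as its highest value outside females. LOC101901032 and LOC109614181 had GFP female values of 1425 to 2044 and of 257 to 282, and at most 10.3 and 4.23 in other abdomens. In none of these 6 genes did GFP female libraries overlap the others, and all 6 calls held under every one of 14 alternative settings.

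Over groups, the medians of the sex-biased members of the abdomen were nearer to GFP males than to GFP females in both N and SR. The median over the 1205 male-biased members of log2(group mean + 1) was 7.29 in N, 6.92 in SR, 1.90 in GFP females and 7.08 in GFP males. For the 400 female-biased members it was 7.21 in N, 7.26 in SR, 9.36 in GFP females and 7.06 in GFP males. GFP values chose these genes, so the GFP medians are a description. N and SR values entered the filter and the shared estimate of the spread. The 859 kept members under 10 in all GFP female abdomens passed that filter through N, SR or GFP male values. Their part in the N and SR medians was not tested.

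Long non-coding RNA genes were set out as a list by gene type, because the RefSeq table gives types and no descriptions. Of 119 lncRNA members tested in the abdomen, 4 were higher in GFP females and 82 in GFP males. These are 3.36% and 68.9%, where all genes gave 33.4% and 44.3%. Their median log2 difference was -3.32, against -0.61 over all genes. The 1309 protein-coding members tested in the abdomen also leaned to males, with 19.9% higher in GFP females, 59.1% in GFP males and a median of -3.12. For the 667 members without an entry in the RefSeq table the shares were 19.3% and 50.7%. Among 196 lncRNA genes with an element, 19 were higher in GFP females and 133 in GFP males, that is 9.69% and 67.9%. Their median was -3.06, so lncRNA genes with an element leaned to males much as the lncRNA members did. In the head, 15 of 104 lncRNA members, 14.4%, were higher in GFP females and 7, 6.73%, in GFP males, where all genes gave 11.0% and 14.6%. Of 164 lncRNA genes with an element tested in the head, 35 were higher in GFP females and 10 in GFP males, so those lncRNA genes leaned the same way. For N against SR, 10 of 119 lncRNA members were called in the abdomen, 8.40%, where 14.6% of all genes were, with 8 higher in N and 2 higher in SR. In heads 3 of 104 were called, 2.88%, all higher in N, where 0.302% of all genes were called.

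Several of the strongest male-biased members were next to each other in the RefSeq gene order, a pattern looked for after the named genes were known. Between LOC101899665 and LOC101898429, both on element B, the RefSeq table lists 15 genes, and 11 of them are members here, 9 of them lncRNA genes. The 11 together took 0.860, 6.74 and 0.249% of the reads in N abdomens, 4.18, 1.95 and 7.49% in SR abdomens, 0.000230, 0.000203 and 0.000347% in GFP female abdomens and 2.82, 2.75 and 3.22% in GFP male abdomens. Every abdomen of N, SR and GFP males lay above every GFP female abdomen, and N and SR libraries spread far more than GFP males. The lncRNA gene LOC101890350 had the most reads, with 72975, 905329 and 29052 normalized counts in N, 579945, 194872 and 911797 in SR, 13.4, 18.3 and 21.9 in GFP females, with 337482, 283458 and 327093 in GFP males. Of the 11, 10 were higher in GFP male than in GFP female abdomens. The flanking gene LOC101898429 had 691, 1096 and 1036 in GFP females against 841, 704 and 839 in GFP males, so its groups overlapped. The other flank, LOC101899665, had 18.6, 9.85 and 6.26 in GFP females against 598, 159 and 1105 in GFP males, and was lower in GFP females as the members were (-5.36 ± 0.70, adjusted p = 5.19e-05).

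Of the members in this stretch, 1 was called between N and SR, the protein-coding LOC105261660. It was higher in N by 3.89 ± 0.74 on the log2 scale (adjusted p = 0.0123). The flank LOC101899665 was also higher in N (2.89 ± 0.70, adjusted p = 0.0249). A different gene of the stretch was not called for sex. The lncRNA gene LOC109612145 had 2875, 47011 and 1018 normalized counts in N abdomens, 29419, 0 and 70630 in SR abdomens, 0, 0.961 and 0 in GFP female abdomens and no read in the 3 GFP male abdomens. It was at least 5272-fold higher in N and at least 10362-fold higher in SR than a floor of 3 reads per GFP male library, on group means, yet SR replicate 2 had no read. The limma differences were not called for sex (0.32 ± 3.36, adjusted p = 0.932) or for N against SR (2.02 ± 3.36, adjusted p = 0.718), and treatment against control was not tested. LOC109612143, 2 genes before it in table order, was read in all GFP males, with 75974, 42948 and 57821. LOC109614194 and LOC109614193, both lncRNA genes, and the protein-coding LOC101889691 had GFP male means of 57465 ± 14803, 109398 ± 17603 and 111490 ± 24251 (SD, n = 3), with GFP female means of 2.57 ± 2.43, 4.36 ± 4.03 and 3.69 ± 2.53 normalized counts.

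A second run of 5 members, all lncRNA genes and all higher in GFP males, lies between LOC101898671 and LOC101898363, both on element E. The first of these flanks was also lower in GFP females than in GFP males (-4.90 ± 1.20, adjusted p = 0.00333), and the second was not called (-2.76 ± 1.25, adjusted p = 0.0627). The 5 took 0.260, 0.915 and 0.0625% of the reads in N abdomens, 0.938, 1.33 and 1.56% in SR, at most 0.000205% in GFP females, with 1.52, 2.01 and 1.64% in GFP males. LOC101888455 led them with 36938, 183285 and 11099 normalized counts in N, 168110, 245726 and 380952 in SR, 16.7, 3.84 and 25.3 in GFP females, with 380060, 428608 and 371934 in GFP males. All N abdomens and 2 SR abdomens lay below the GFP males in this gene, and N against SR was not called (-2.57 ± 0.89, adjusted p = 0.0758). LOC109613679 was the 1 member of this run called between N and SR, lower in N by 2.84 ± 0.77 on the log2 scale (adjusted p = 0.0345). In heads the first stretch took at most 0.00986% and the second at most 0.00507% of any library, and both maxima were in N replicate 2.

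**Figure D4:**
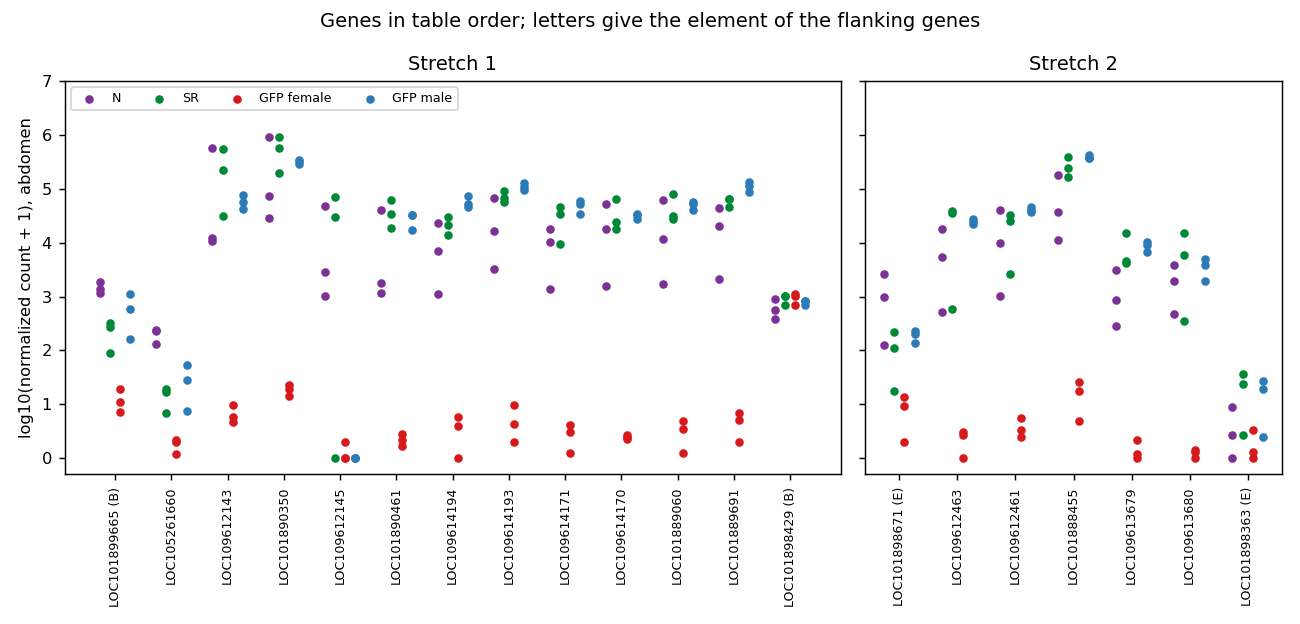
Normalized counts in abdomens, as log10(value + 1) (y axis), of the genes of 2 stretches in RefSeq order (x axis, with the Muller element of the flanking genes in brackets); each point is 1 library, coloured by group. All lncRNA members except LOC109612145 lie far above the GFP female libraries in every male library, and LOC109612145 is at 0 in the GFP males.

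Sex differences in control heads were fewer, and the members were close to the other genes. Of 2082 members tested, 192 were higher in GFP females and 326 in GFP males, together 24.9%, where 25.6% of all genes were called, 11.0% higher in GFP females and 14.6% higher in GFP males. Genes with an element gave 25.8%. The counts rest on single libraries: without GFP female replicate 2 or 3 the members called were 221 or 332, and without GFP male replicate 1, 2 or 3 they were 303, 123 or 235, with 617 without GFP female replicate 1. Of 1691 members tested in both tissues, 32 were higher in GFP females in both, 1.89%, and 112 were higher in GFP males in both, 6.62%, against 4.01% and 4.92% of 9484 genes with an element. Another 68 members, 4.02%, were higher in female abdomens and male heads and 94, 5.56%, in male abdomens and female heads, against 5.90% and 4.44% of genes with an element.

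Of the 6 male-biased members of the head with the largest differences, 3 were low in N and SR alike. The protein-coding LOC101898904 had 28.0, 22.7 and 17.3 normalized counts in N heads, 48.9, 18.2 and 17.8 in SR heads, 35.1, 13.3 and 8.33 in GFP female heads and 448, 2440 and 1308 in GFP male heads. Its sex difference was -6.06 ± 0.69 (adjusted p = 0.00161), and no library outside GFP males came near the GFP males. LOC101893883 had 5.34 to 55.2 in the 9 other heads, against 309, 1700 and 790 in GFP male heads. LOC101894833 had 118, 384 and 275 in GFP male heads and at most 21.4 in the others. Over the 326 male-biased members, the median of log2(group mean + 1) was 5.80 in N, 6.15 in SR, 5.04 in GFP females and 7.48 in GFP males. For the 192 female-biased members of the head it was 8.50 in N, 8.64 in SR, 9.17 in GFP females and 7.27 in GFP males. GFP values chose both sets, so the GFP medians are a description. GFP males were also the most deeply sequenced heads, at 57096789 to 79454339 reads; SR replicate 2, at 62303540 reads, lies within that range, and the part of depth in these differences was not tested.

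Of the 6 female-biased members of the head with the largest differences, 4 were highest in GFP female replicate 1 by a wide margin. LOC101890561 had 4.42, 10.1 and 0 normalized counts in N heads, 1154, 4103 and 10.7 in SR heads, 38220, 614 and 1752 in GFP female heads and 0, 2.01 and 0 in GFP male heads. GFP female replicate 1 stood far above the other 2 females, but all 3 lay above the males (log2 difference 11.22 ± 2.08, adjusted p = 0.00821). LOC101891084, its neighbour in the RefSeq order, had 28258, 111 and 765 in GFP female heads against 0, 2.51 and 0.746 in GFP male heads. LOC101900352 and LOC101890393 had 4078 and 3475 in GFP female replicate 1, 127 and 5.34 in replicate 2, and at most 0.373 in GFP males. The call of LOC101890393 was lost in 9 of 14 alternatives, both replicate blocks among them, and those of LOC101891084 and LOC101900352 only without GFP male replicate 2. In the abdomen the same 4 genes were also highest among GFP females in replicate 1, where LOC101890561 had 4228 normalized counts, against 17.3 and 86.4 in replicates 2 and 3. Head and abdomen of replicate 1 share a library code number, so they may be of the same fly. By contrast LOC101896716 had 98.6, 22.7 and 84.3 in GFP female heads, 3.76 in 1 SR head and 0 in the other 8 heads (5.87 ± 0.77, adjusted p = 0.00241).

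N and SR abdomens differed in 279 of 2119 members, 197 higher in N and 82 higher in SR. That is 13.2% of members, where 14.6% of all genes were called, 8.56% higher in N and 6.05% higher in SR. Genes with an element gave 14.9%. The count depends on single libraries and on the model: it was 157 or 165 without N replicate 1 or 3, 144 or 78 without SR replicate 1 or 2, and 11 without N replicates 1 and 3 together. Those replicates were the shallowest libraries of the series, and the part of their depth in the count was not tested.

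LOC101892939, which has no entry in the RefSeq table, differed most between N and SR. It had 17141, 1150 and 2930 normalized counts in N abdomens, 0.871, 0.604 and 3.19 in SR abdomens, 0.206, 0 and 2.56 in GFP female abdomens and 1419, 1138 and 1263 in GFP male abdomens. All N and GFP male abdomens were above 1000 and no SR or GFP female abdomen was above 4 (N minus SR 10.70 ± 0.88, adjusted p = 0.000625). LOC105262442 had 165, 113 and 148 in N, 2.61, 0.604 and 0 in SR, 0, 0.48 and 0 in GFP females, with 67.4, 66.7 and 120 in GFP males (N minus SR 6.30 ± 0.57, adjusted p = 0.000937). Both calls held under all 15 alternatives. LOC101890891 had 141, 96.2 and 62.2 in N, no read in SR or GFP females, and 91.8, 2.41 and 4.90 in GFP males. It was at least 39.3-fold higher in N than in SR, and its call was lost only without both shallow N libraries. The lncRNA genes LOC109612566 and LOC109613686 also had no read in SR or GFP female abdomens, with 180, 35.5 and 7.77 and with 165, 30.4 and 7.77 in N.

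Of the members higher in SR abdomens with the largest differences, 2 lie 4 genes apart in the RefSeq order. LOC101896660, protein coding, had 823, 108 and 85.5 normalized counts in N abdomens, 14597, 7824 and 12738 in SR abdomens, 1254, 61.0 and 6.82 in GFP females, with 775, 670 and 678 in GFP males. SR libraries lay above all 9 others (N minus SR -5.84 ± 1.47, adjusted p = 0.0271). LOC101893043, which sits between the same flanking genes of elements E and D, had 172, 32.1 and 15.5 in N and 3058, 1276 and 2180 in SR. LOC101897817 had no read in N against 18.3, 66.4 and 70.2 in SR, at least 2.99-fold lower in N. LOC101890275 had 0, 1.69 and 7.77 in N, 105, 150 and 60.7 in SR and 22.5 to 40.2 in GFP males. Leaving out N replicate 2 or 3, or leaving out SR replicate 1 or 2, ended the calls of LOC101896660 and LOC101893043, with adjusted p up to 0.167 and 0.171 over all alternatives.

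In heads, 15 members differed between N and SR, 13 higher in N and 2 higher in SR. They made up 0.720% of members, where 0.302% of all genes were called, 0.245% higher in N and 0.0572% higher in SR. Genes with an element gave 22 calls, 0.217%, of which 16 were among 1829 genes of element A, 0.875%. Without any 1 of N replicates 1, 2 and 3 the members called were 7, 4 or 5, and without SR replicate 1 or 3 they were 4 or 6, with 16 without SR replicate 2. A limma fit to N and SR heads alone gave 0 calls among members, with 145 at an unadjusted p under 0.05, while edgeR's quasi-likelihood test gave 8 and DESeq2 gave 47, and 189 members had an unadjusted p under 0.05 in the limma fit to all 4 groups.

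Among the genes called in heads, LOC101892939, LOC105262442 and LOC101890891 were also among those named above for the abdomen. LOC101892939 had 2697, 1304 and 508 normalized counts in N heads, 8.46, 0 and 5.35 in SR heads, 1.35, 0 and 0 in GFP female heads and 275, 200 and 335 in GFP male heads (N minus SR 8.28 ± 0.85, adjusted p = 0.00273). LOC105262442 had 85.4, 70.5 and 47.2 in N, 0, 0 and 1.78 in SR, no read in GFP females, with 53.3, 58.8 and 86.6 in GFP males (N minus SR 5.57 ± 0.53, adjusted p = 0.00228). LOC101890891 had 81.0, 27.7 and 22.0 in N, no read in SR or GFP females and 4.13, 30.6 and 10.1 in GFP males. The lncRNA gene LOC109611652 had 91.3, 70.5 and 29.9 in N, 0.94, 1.30 and 0 in SR, 1.35, 1.33 and 0.926 in GFP females, with 43.6, 73.4 and 57.5 in GFP males. In all 4 genes the N and GFP male libraries stood above the SR and GFP female libraries. Except for LOC101890891, which lost its call in 9 of 14 alternatives, these genes were called in all but 2, the fit to N and SR heads alone and the block by library code. The opposite order was seen in LOC109613908, with 42.7, 65.5 and 55.1 in N heads, 189, 191 and 203 in SR, 153, 109 and 142 in GFP females, with 45.9, 61.8 and 51.5 in GFP males (N minus SR -1.84 ± 0.27, adjusted p = 0.0216), and its call was lost in 8 of 14 alternatives.

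Genes that split the 12 libraries by genotype were counted without a test, once with N and once with SR set beside GFP males, since the titles and the authors' deposited comparisons assign these groups differently. The rule asked for 3 or more reads in every library of 1 pair of groups and under 3 in every library of the other pair. With reads in GFP males and N, it found 1 member in the abdomen, where 0.0423% of all genes in the table passed, and 7 in the head, where 0.0726% did. With reads in GFP males and SR it found 8 in the abdomen, where 0.121% of all genes passed, and 3 in the head, where 0.0484% did. In the abdomen the rule is stricter for N with reads than for SR with reads. There 3 reads stand for 23.5 and 23.3 normalized counts in N replicates 1 and 3, and for 1.81 to 3.19 in SR. The part of depth in these counts was not tested. One member passed in both tissues with reads in GFP males and N, LOC101890891, where 0.0121% of all genes did, and 0 members passed in both with reads in GFP males and SR. Leaving out N replicate 2 raised the 8 to 25 and leaving out SR replicate 3 raised the 3 to 13.

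A second rule, added after values had been seen, asked that the 6 libraries of 1 pair all lie above the other 6, with at least 10 in each of the higher 6. In both tissues at once, 11 members had N and GFP males above SR and GFP females, where 0.145% of all genes passed, and 13 genes with an element did so. With GFP males and SR above N and GFP females the count was 0 members and 0 genes with an element. With each tissue counted separately, GFP males and SR lay above the others for 65 members in the abdomen, 1.69% of members against 2.07% of all genes, and for 8 in the head, 0.209% against 0.441%. N and GFP males did so for 40 members in the abdomen, 1.04% against 1.11% of all genes, and for 27 in the head, 0.704% against 0.750%, shares near those of all genes. Protein-coding LOC101899939 had 2099, 3225 and 1688 normalized counts in N, 76.1, 485 and 344 in SR, 308, 763 and 357 in GFP females, with 3334, 2678 and 3107 in GFP males of the head. LOC109613991, between element A genes in the RefSeq order, had 495, 242 and 346 in N heads, 104, 78.5 and 99.8 in SR heads, 54.0, 60.0 and 93.5 in GFP female heads and 451, 487 and 457 in GFP male heads. LOC109613990 had 42.7, 111 and 178 in N heads and 0, 1.30 and 5.35 in SR heads, and no read in GFP females of either tissue.

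Differences of other genes among the 11 ranged widely in size. LOC101894180, also between element A genes, had 1196, 1586 and 1205 normalized counts in N heads, 506, 631 and 556 in SR heads, 384, 511 and 457 in GFP female heads and 1029, 969 and 977 in GFP male heads, a sex difference of -1.15 ± 0.17 (adjusted p = 0.00414) and an N minus SR difference of 1.23 ± 0.17 (adjusted p = 0.0156) that lost its call in 7 of 14 alternatives. LOC101900813, between genes of elements A and E, had 44.2, 55.4 and 25.2 in N heads against 1.88, 0 and 0 in SR heads (4.83 ± 0.54, adjusted p = 0.00425). LOC101894783 lies between genes of elements E and B, and LOC101899939 has an element A gene on its right and none on its left. Those of the 11 without a RefSeq entry have no flanks to give. LOC101899939, LOC101894783, LOC101897317, LOC101892859 and LOC101887544 were not called between N and SR in heads, with adjusted p of 0.0672, 0.690, 0.410, 0.560 and 0.550. The reverse order, GFP females and SR above GFP males and N, was found in both tissues for 1 member, LOC101899892, where 0.0544% of all genes passed. It lies between element A genes and had 1623, 1652 and 1622 in N heads, 2039, 2277 and 2308 in SR heads, 2120, 2823 and 2026 in GFP female heads and 1428, 1277 and 1478 in GFP male heads. No member had GFP females and N above GFP males and SR in both tissues, with 0.00605% of all genes. By single tissue, GFP females and N lay above the others for 48 members in the abdomen, 1.25% of members against 2.88% of all genes. In the head the count was 16, 0.417% against 0.550%. GFP females and SR did so for 13 members in the abdomen, 0.339% against 1.28%, and for 18 in the head, 0.469% against 0.568%.

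**Figure D5:**
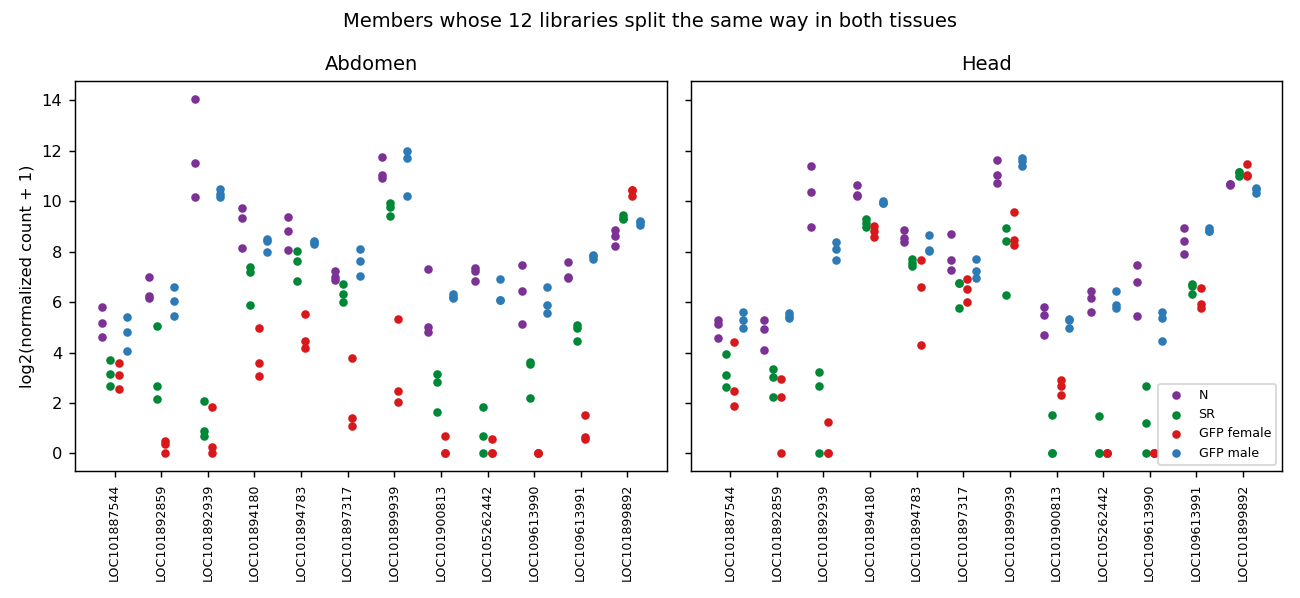
Values as log2(normalized count + 1) (y axis) in abdomen (left) and head (right) of the members whose 12 libraries separated the same way in both tissues (x axis); each point is 1 library, coloured by group. In the first 11 genes all N and GFP male points lie above all SR and GFP female points, and in LOC101899892 the order is reversed.

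Members with the most reads in heads varied widely between flies and gave no sex call. LOC101890209, protein coding, had 474720, 406063 and 157791 normalized counts in N heads, 385062, 2134 and 106755 in SR heads, 254223, 220 and 91932 in GFP female heads and 106680, 69466 and 123779 in GFP male heads. SR replicate 2 and GFP female replicate 2 were the low heads, and they were also the lowest in LOC101899210, at 28636 and 304, and in LOC101887984, at 33271 and 1081, its neighbour in the RefSeq order. LOC101899557 varied least among the 5 members with the most reads in heads, from 118271 in an N head to 454302 in a GFP female head. LOC101892639 was high in those same 2 heads alone, with 2293838 in SR replicate 2 and 266365 in GFP female replicate 2, and at most 92.8 in the other 10. In abdomens it had 523269 in GFP male replicate 3 and 14371 in N replicate 3 and at most 205 elsewhere, so 1 fly set its group mean in each case.

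Values led by 1 library were counted after this gene had been seen. A library at 10 or more times the second highest, with at least 100 normalized counts, was found for 26 members in the abdomen, 1.23% of those kept, against 0.672% of genes with an element. GFP male replicate 3 was that library for 11 of the 26, GFP female replicate 1 for 6 and N replicate 3 for 5. The same libraries led 17, 17 and 16 of the 70 such genes with an element. In the head there were 31 such members, 1.49%, against 0.995% of genes with an element. SR replicate 2 was the high library for 26 of the 31 members and likewise for 87 of the 101 genes with an element. The spread between flies of 1 group was wider for members: the median over genes of the SD of log2 values was 0.79 in N, 0.69 in SR, 0.42 in GFP female and 0.57 in GFP male abdomens, against 0.49, 0.43, 0.26 and 0.33 for genes with an element. Members also had lower counts, and the part of count level in this spread was not tested.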

How the data were processed

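Poly(A) RNA of heads and abdomens of single flies was made into stranded libraries, 24 in all, per the labels' protocols. CASAVA, HISAT2, HTSeq 0.9.1 and DESeq2 1.16.1 are named in the submitters' processing notes without roles; the genome build is not given in the sources used here. For each tissue, the authors deposited normalized counts, per the column headers: a signal in which read counts had been divided by 1 size factor per library, with the Muller element of each gene. Per the file headers it also holds the authors' log2 fold changes, adjusted p-values and mean signal of 4 comparisons, which were used here only to see which libraries each comparison describes. Dividing by the worth of 1 read gave whole reads for 100% of deposited values above 0, within 0.001.

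Genes with at least 10 in 3 of 12 libraries were fitted by limma 3.58.1 (R 4.3.3, trended prior) on log2(normalized count + 1), all 4 groups of a tissue together and no block, with Benjamini-Hochberg adjustment over all genes kept and a threshold of 0.05. Members were counted from that fit; genes with an element are given as counts and medians, with no test between the sets. The design had edgeR for raw counts; the unit found decided for limma. As alternatives, recovered reads were tested with DESeq2 1.42.0 and with the quasi-likelihood test of edgeR 4.0.16, which called 1701, 496, 135 and 8 members for sex in abdomens, sex in heads, and N against SR in abdomens and heads. Fold changes are ratios of mean normalized counts; log2 differences understate the change of low genes. Floors are 3 reads per library and cover counting error only, since the reads carry no molecular identifiers.

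Genes were named per comparison and direction as the 6 called members with the largest log2 difference, no overlap and, in the higher group, a mean of 50 or more; as the up to 10 members with the genotype pattern in both tissues; as the 5 with the most reads per tissue; and as up to 4 called lncRNA members. Other genes were named after their values were seen. Members and lists were chosen with earlier results of these data known. Gene types and neighbours come from the RefSeq table of assembly Musca_domestica.polishedcontigs.V.1.1, matched by gene ID; it gives no descriptions, so lists by description could not be formed, and it does not mark contig ends. Paralogs share reads in ways the tables do not resolve. The labels call the flies biological replicates. Head and abdomen libraries of the same group and replicate share a library code number. Whether they come from the same fly was not established here, so patterns in both tissues may not be independent.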

Additional observations from a re-analysis of the deposited data

Results flagged for a closer look

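The results below, 4 genes in all, moved in opposite directions in the 2 tissues, with every library of one group above every library of the other in each tissue; the difference between tissues was not tested. LOC101890112 was lower in GFP females than in GFP males in the abdomen by a log2 difference of -3.99 and higher in GFP females in the head by 2.23. LOC101897531 was at -5.48 in the abdomen and at 5.81 in the head for the same comparison. LOC109613908 was at -2.97 in the abdomen and at 1.32 in the head. For N against SR, LOC101896660 was at -5.84 in the abdomen, lower in N, and at 4.49 in the head, higher in N, where it had 11.8, 20.1 and 40.9 normalized counts in N and no read in SR.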

How the results depend on the processing

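For sex in the abdomen the count of members called was 1444 to 1760 over all alternatives, within 1.5 times the 1605 reported. In heads it was 123 to 617 with 1 library left out and otherwise moved by over 1.5 times only with the library code as block (251). For N against SR abdomens, edgeR gave 135, DESeq2 437, a fit to N and SR alone 22, leaving out 1 library 78 to 347, and leaving out both shallow N libraries 11. For N against SR heads these were 8, 47 and 0, and 4 to 16 with 1 library left out. Titles number the replicates 1 to 3 in every group. Library codes run from 2 to 4 in GFP females and N, and from 1 to 3 in GFP males and SR. Same-numbered libraries did not deviate together in every pair (correlations of -0.07 to 0.25 by title number), so the numbers were not used as pairs. By title number, every library correlated best with its own number for sex in abdomens and N against SR in heads (6 of 6). That did not hold for N against SR in abdomens (4 of 6) or sex in heads (0 of 6). With a replicate block by title number the members called were 1616, 438, 281 and 8 for sex in abdomens, sex in heads, N against SR in abdomens and in heads, and with a block by library code 1474, 251, 30 and 0. Code 1 occurs only in GFP males and SR, and code 4 only in GFP females and N. The block by code is thus partly confounded with the groups compared and matches libraries only at codes 2 and 3. For the genotype pattern, counts were as follows, where separation of libraries is a rule added after values had been seen. With reads in GFP males and N it gave 1 member in the abdomen, 2 at 5 reads, 4 at 1 read, 40 by separation of libraries and 1 to 5 with 1 library left out; in the head 7, and 3 at 1 read, 27 and 7 to 8. With reads in GFP males and SR it gave 8, and 1 at 1 read, 65 and 8 to 25 in the abdomen; in the head 3, and 5 at 5 reads, 8 and 3 to 13. With reads in GFP females and N it gave 0, and 48 and 0 to 1 in the abdomen; in the head 0, and 16 and 0 to 0. With reads in GFP females and SR it gave 1, and 3 at 5 reads, 2 at 1 read, 13 and 1 to 7 in the abdomen; in the head 0, and 1 at 5 reads, 18 and 0 to 2. Of 1325 values recomputed for named genes, 1108 stayed on the same side of the threshold, 214 lost a call and 3 gained one. Among those called in the limma fit to all 4 groups, 0 turned direction. Direction was not checked for the rest. The shallow N abdomens limit low members there, where 3 reads stand for 23.5 normalized counts.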

Other observations

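There were 2 members with 3 or more reads in every N and SR abdomen and under 3 in every GFP abdomen, a pattern looked for after LOC109612145 had been seen. LOC101898781 had 39.2, 30.4 and 69.9 normalized counts in N abdomens, 4.36, 5.43 and 37.2 in SR abdomens, 0.413, 0 and 0 in GFP female abdomens and 2.87, 0.804 and 0.979 in GFP male abdomens. In heads the same gene was highest in GFP males, with 29.9, 175 and 68.3, against at most 7.13 in the other 9 heads. LOC109612996, a protein-coding gene, had 31.3, 32.1 and 77.7 in N abdomens, 14.8, 3.02 and 46.8 in SR abdomens, no read in GFP female abdomens and 1 read in each GFP male abdomen. Among 12681 genes with an element, 1 showed this pattern in the abdomen, and in heads 0 members and 0 genes with an element did.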
